A study of Mus musculus with 12 samples.

Results

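The 4 miRNAs described here, miR-706, miR-690, miR-709 and miR-135a*, were candidates for a nuclear location among 593 TaqMan assays read in mouse bone marrow cells during granulopoiesis. They were chosen by the nuclear and cytoplasmic readings of these same samples, which are therefore given as a description, while the whole cell readings did not enter the choice. The study also measured each candidate in separate PCR assays. By those it reported miR-706, miR-690 and miR-709 as nuclear-enriched in all 4 cell types, relative to cytoplasmic control miRNAs. There miR-135a* did not appear enriched in the nucleus of any of them. The samples were LSK cells, the lineage negative Sca1+ cKit+ population that contains stem cells and early progenitors, and then promyelocytes, myelocytes and granulocytes in order of maturation, all sorted from the bone marrow of C57BL/6 mice without further treatment. Whole cell, cytoplasmic and nuclear RNA of each stage gave 1 sample apiece, 12 in all, and the labels give 100 ng of RNA per reaction. The study describes its nuclear and cytoplasmic array readings as based on cell equivalent amounts, so whether a difference between fractions is per mass of RNA or per cell is not settled here. With 1 sample per stage and fraction there was no replicate error and no test, and every difference below compares samples rather than populations of animals. The reading is the threshold cycle (CT), the PCR cycle at which an assay's product crosses a fixed threshold. A lower CT stands for more template, 1 cycle for a 2-fold difference at full efficiency, and 40 for a well in which no product was found. Where 4 values follow each other below, they are in stage order, from LSK to granulocytes.

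A miRNA is cut from a hairpin precursor, exported from the nucleus and loaded onto an Argonaute protein, which it guides to messenger RNAs through its seed, the bases from the second to the eighth. Most mature miRNAs therefore act in the cytoplasm, but some are also found in the nucleus, where miR-709 is known to bind the primary transcript of miR-15a and miR-16 and to hold back its processing. miR-706 and miR-709 share letters with the short interspersed B1 repeats of rodent genomes, and miR-135a* is the strand from the 3′ arm of the Mir135a-1 hairpin, whose 5′ arm gives miR-135a.

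RefSeq (GRCm38.p6) gave a mature sequence for 3 of the 4, shown because the seed decides which transcripts a miRNA pairs with and because the letters outside the seed bear on how often the same run occurs elsewhere in the genome. The other arm of the miR-135a* hairpin is added for comparison, and capitals mark the seed.
miR-706: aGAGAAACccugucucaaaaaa
miR-690: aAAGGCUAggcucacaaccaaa
miR-135a*: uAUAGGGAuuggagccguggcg
miR-135a: uAUGGCUUuuuauuccuauguga
miR-706 was placed at chr6:120034290-120034311 on the minus strand, miR-690 at chr16:28599940-28599961 on the minus strand, and miR-135a* at chr9:106154179-106154200 on the plus strand. In the gene table Mir706 overlapped the span of Wnk1, Mir690 that of Fgf12, Mir709 that of Rfx1, and Mir135a-1 those of Glyctk and the noncoding gene D030055H07Rik. That table gives gene spans only, so exons and introns were not told apart.

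The 3 sequences had little in common. The longest run of letters shared between any pair of them was 4, and no other of the 1679 mature names in the table shared a 7-base seed with miR-706, miR-690 or miR-135a*. G and C made up 36.4% of miR-706, 45.5% of miR-690 and 59.1% of miR-135a*, beside a median of 52.2% over all mature sequences. miR-706 ended in a run of 6 A. AGUGUU, the hexamer known as a nuclear localisation element of miR-29b, was in none of the 3 and in 12 of the 1679 mature sequences (0.715%).

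miR-706 and miR-690 held letters that recur in gene promoters. Every window of a mature sequence was searched, as DNA and on both strands, in 32851 RefSeq promoters of 300 bases around a gene start. The first 16 letters of miR-706, AGAGAAACCCTGTCTC, were in 28 promoters (0.0852%), and only 4 of 1678 mature sequences, miR-706 included, had a window of that length in as many. Of the 12-letter windows, AGAGAAACCCTG within that run was in 59 promoters (0.180%) and GGCTCACAACCA of miR-690 in 100 promoters (0.304%), against a median of 6 promoters for the most frequent window of a mature sequence. The most frequent 12-letter window of miR-135a*, TAGGGATTGGAG, was in 5 promoters (0.0152%), below that median.

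The marker miRNAs followed the stage labels. A product was found for 259 to 288 assays per whole cell sample, 263 to 294 per cytoplasmic and 199 to 229 per nuclear sample. Of 11 marker miRNAs 8 could be named among the assays. miR-223, the leading miRNA of granulocytes, went from a whole cell CT of 23.98 in LSK to 16.43 in granulocytes, and miR-142-3p, found across blood cells, from 25.28 to 20.63. miR-125b-5p, miR-126-3p and miR-196b, markers of stem and progenitor cells, each had their lowest whole cell CT in LSK. miR-150 of lymphocytes was read at 25.13, 28.78, 25.60 and 25.84 in whole cell RNA. miR-1 of muscle and miR-124 of nerve had no CT under 30 in any whole cell sample, and the part of other cell types in the results below was not tested. In bulk RNA, fewer cells of a type and less of a miRNA per cell cannot be told apart.

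miR-709 was the most abundant of the 4 by CT and the most even. Its CT was 21.79, 20.75, 21.03 and 20.43 in whole cell RNA. In cytoplasmic RNA it was 21.05, 21.60, 20.70 and 20.43. In nuclear RNA it was 21.55, 21.26, 22.23 and 20.89. The readings of the 3 fractions overlapped, and all 12 values fell within 1.79 cycles, against spans of 2.52 for miR-135a*, 3.88 for miR-690 and 4.22 for miR-706. CT levels of different assays depend on each assay's primers, so this order of abundance is only approximate.

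miR-706 was read late, close to the CT of 30 taken as the limit of reliable detection. Its whole cell CT was 30.83, 28.61, 28.51 and 29.22. The cytoplasmic CT was 28.86, 29.12, 28.70 and 27.19. The nuclear CT was 28.09, 26.62, 28.88 and 28.20. Promyelocytes therefore held its lowest nuclear and its highest cytoplasmic CT, and granulocytes its lowest cytoplasmic CT.

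miR-690 had a cytoplasmic CT of 24.12, 24.05, 23.51 and 23.00, lower at every step of maturation. Its nuclear CT was 25.35, 24.23, 25.11 and 25.02, lowest in promyelocytes like that of miR-706. In whole cell RNA it was read at 26.87, 24.90, 24.70 and 24.77, with LSK standing apart from the later stages. The cytoplasmic reading was the lowest of the 3 in every stage.

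miR-135a* had a whole cell CT of 28.34, 27.75, 27.41 and 26.86. Its cytoplasmic CT was 27.66, 28.14, 27.64 and 27.65, nearly level. Its nuclear CT was 29.34, 29.38, 29.01 and 28.11. The nuclear readings of the first 3 stages were the highest of all 12, and the fractions came closest to each other in granulocytes.

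**Figure D1:**
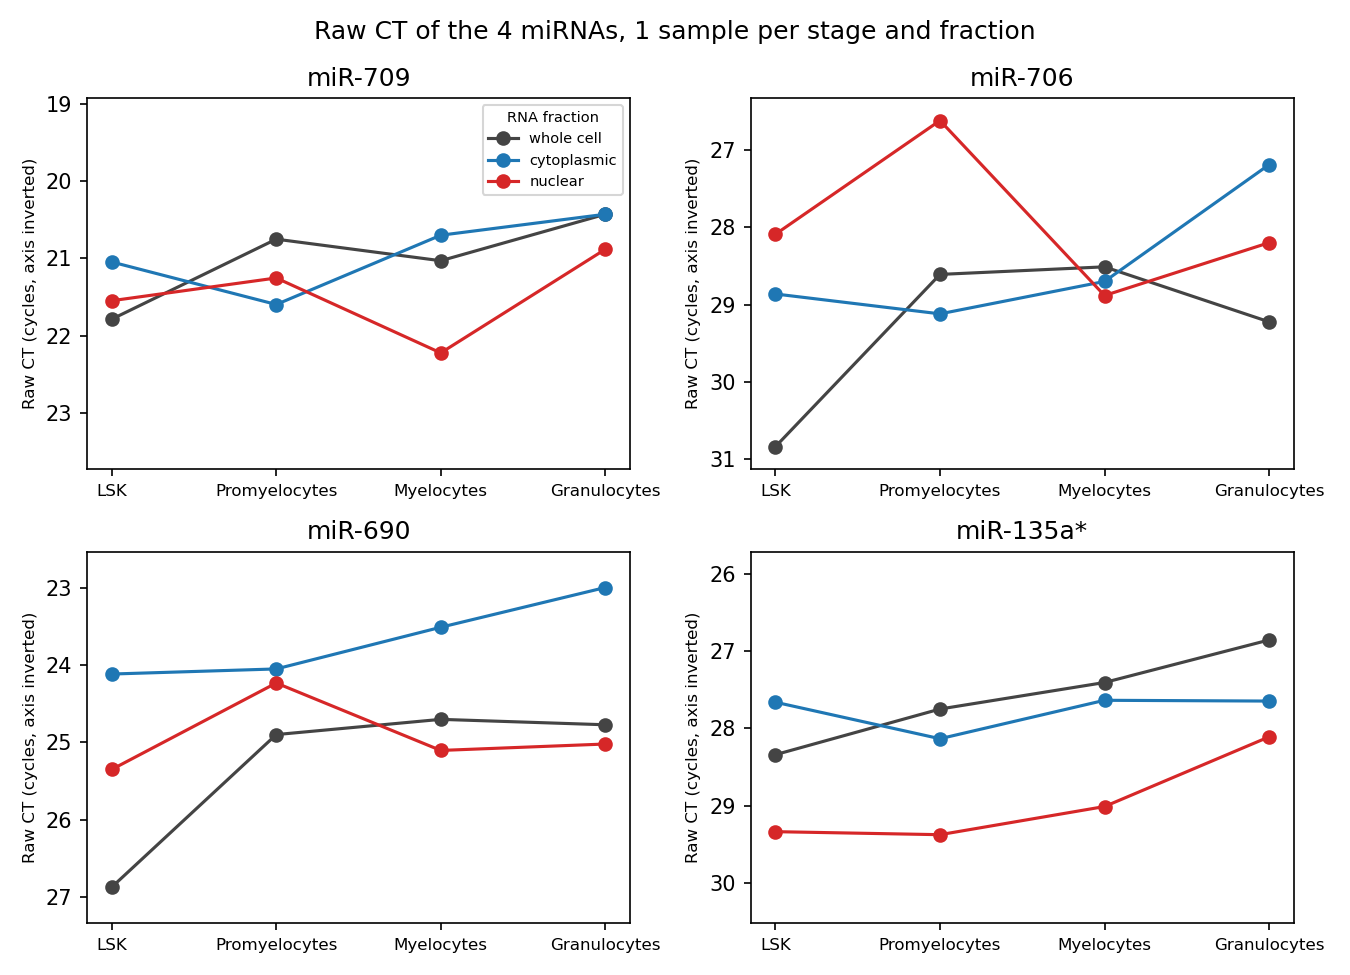
Raw CT (cycles, inverted so that more template is higher) of each miRNA in the 12 samples, with stages along the horizontal axis and 1 point per sample joined within a fraction; every panel spans the same number of cycles. miR-706 shows its nuclear peak in promyelocytes at a CT of 26.62, and miR-690 has its whole cell line below its cytoplasmic line in all 4 stages.

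The nuclear reading of these miRNAs lay much closer to the cytoplasmic one than was usual. Expressed as cytoplasmic minus nuclear CT, where a value above 0 means more template in the nuclear sample, miR-709 gave -0.50, 0.34, -1.52 and -0.45. miR-706 gave 0.77, 2.50, -0.18 and -1.01. The differences of miR-690 were -1.23, -0.18, -1.59 and -2.02, and those of miR-135a* were -1.67, -1.24, -1.37 and -0.46. The median over all named assays with a nuclear CT under 30 was -3.97, -2.64, -3.64 and -2.55, over 45, 40, 37 and 57 assays. All 16 pairs of a miRNA and a stage had a nuclear CT under 30, and all 16 lay above the median of their stage. Since these values chose the miRNAs, their height is no finding.

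In 3 of the 16 pairs the nuclear CT was the lower one, miR-706 in LSK and promyelocytes and miR-709 in promyelocytes, beside 4.47% of the 179 readings of all named assays under a nuclear CT of 30. With the ratio taken as 2 raised to the difference and divided by 3, 15 of the 16 pairs passed a ratio of 0.1, beside 16.2% of the readings of all named assays; with a nuclear CT limit of 28 in place of 30, which 9 pairs met, it was 8 of those 9, beside 14.4%. The pair outside was miR-690 in granulocytes at 0.0820, and the pair just inside was miR-135a* in LSK at 0.104. Set against the median of the stage, 13 of the 16 pairs were 4-fold or more above it, beside 12.8%. Against the median of card B, the card to which the 4 were assigned by the decimals of their CT, this count was 4, beside 14.9% of the 47 readings on that card.

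Among the named assays under a nuclear CT of 30, miR-706 ranked 2, 2, 1 and 4. miR-709 ranked 4, 5, 4 and 1, miR-690 5, 8, 5 and 9, and miR-135a* 7, 11, 3 and 2. The leading place thus passed from miR-706 in myelocytes to miR-709 and miR-135a* in granulocytes. miR-699, at 1.57 in LSK, and miR-696 in promyelocytes stood above miR-706; the cytoplasmic well of miR-696 was undetermined, so its difference is a lower bound. miR-467a* exceeded miR-709 in LSK and promyelocytes, and miR-801 came between these miRNAs in every stage. miR-760 and miR-494 in promyelocytes exceeded miR-690, and miR-27a exceeded miR-135a* there. In granulocytes miR-142-3p at -1.23, miR-744, let-7e and miR-301b exceeded miR-690.

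By the decimals of their CT, as no label gives the card, all 4 miRNAs were assigned to card B of the 2 array cards. So were miR-699, miR-467a*, miR-801, miR-696 and miR-760, and the other assays named above as exceeding one of the 4 fell on card A. Of the assays under a nuclear CT of 30, card B held 12, 14, 8 and 13, the 4 included. Without the 4, the median of the card B assays was -3.63, -1.13, -3.26 and -2.95, over 8, 10, 4 and 9 assays, and that of card A was -4.05, -2.74, -3.79 and -2.55. Against these card B medians, an alternative added after the values were seen, 7 of the 16 pairs were 4-fold or more above, beside 29.8% of the 47 readings on card B, the 4 included, and miR-135a* in promyelocytes lay below its card, at -0.11. miR-706 lay 4.40, 3.63, 3.08 and 1.94 cycles above the card median. Among all named assays under a cytoplasmic CT of 30, the median of card B without the 4 was -4.76, -3.72, -5.31 and -3.16, below that of card A at -4.29, -2.85, -4.02 and -2.55.

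**Figure D2:**
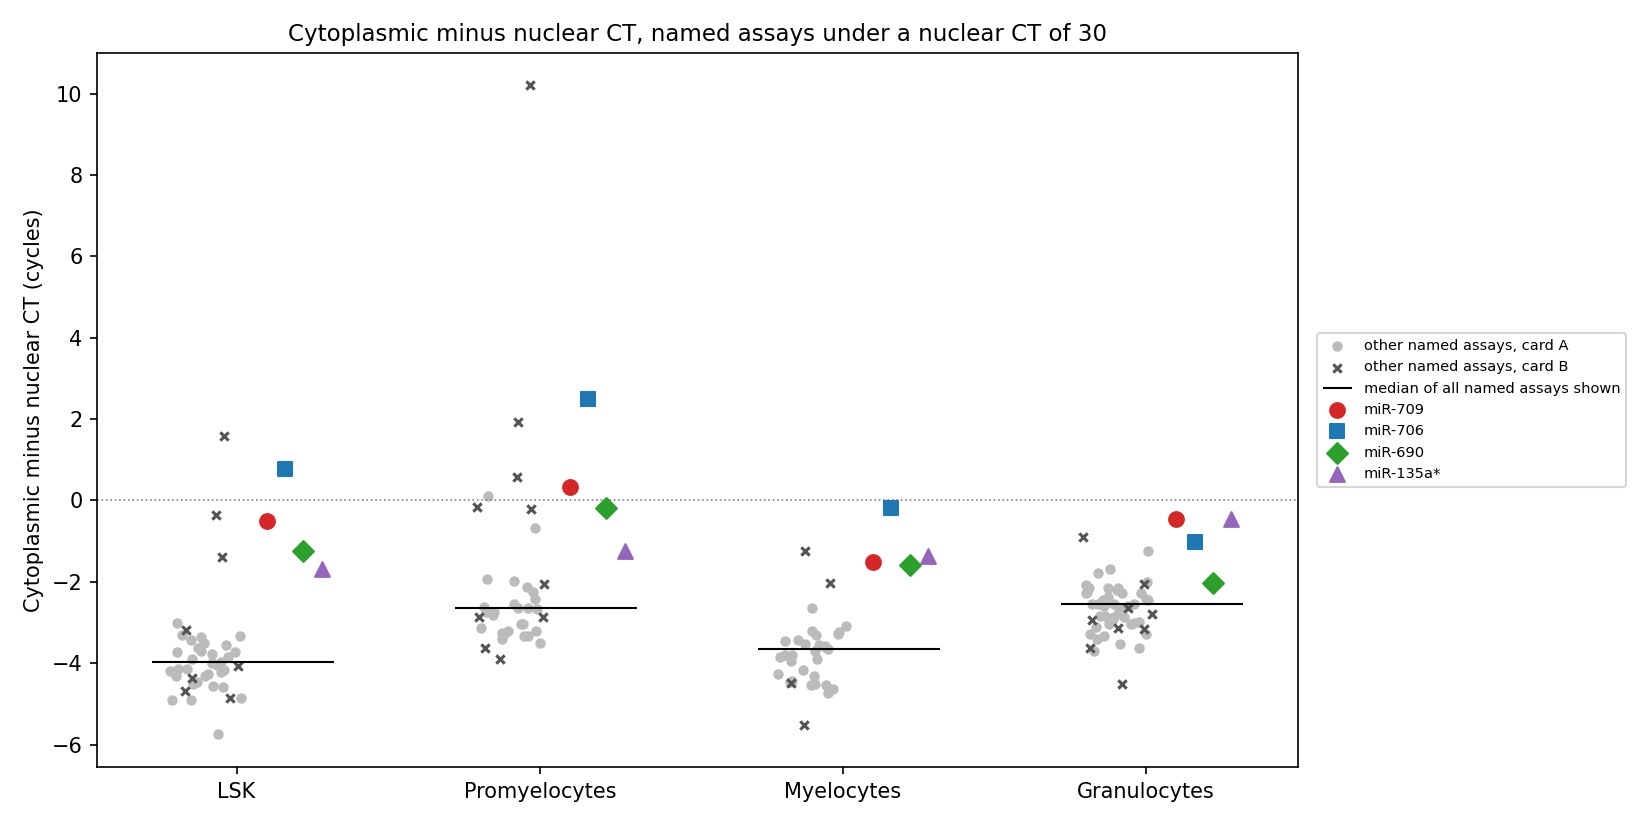
Cytoplasmic minus nuclear CT in cycles for every named assay under a nuclear CT of 30, by stage; circles and crosses are other assays of card A and card B, large coloured symbols the 4 miRNAs, black lines the stage medians and the dotted line equal readings. The 4 lie above the median line in each stage, and of the 4 only miR-706 (in LSK and promyelocytes) and miR-709 (in promyelocytes) lie above 0.

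Cytoplasmic minus nuclear CT was highest in promyelocytes for miR-706, miR-690 and miR-709 and in granulocytes for miR-135a*. miR-706 and miR-690 followed the same order, highest in promyelocytes, then LSK, myelocytes and granulocytes. The last 3 assays of card B, which are unnamed and served to scale whole cell RNA, had the same order, with a mean cytoplasmic minus nuclear CT of 5.68 in promyelocytes, 3.59 in LSK, 2.60 in myelocytes and 1.03 in granulocytes. miR-135a* instead followed the order of the median named assay, highest in granulocytes and lowest in LSK. miR-709 was highest in promyelocytes and lowest in myelocytes and followed neither. With 4 stages and 1 sample each, these orders are descriptions, and the part of the fractionation in them was not tested.

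Read against the cytoplasmic samples, the whole cell samples placed miR-690 at the edge of the assays. The whole cell CT did not enter the choice of the miRNAs, but the fraction CTs it is set against did, so these values too are a description. With the same mass of RNA in each reaction, a whole cell reading that pools nucleus and cytoplasm would lie between the readings of its fractions. With the same number of cells in each reaction and no loss, its CT would lie below both. Which of these held is not settled here. For miR-690 the whole cell CT exceeded the cytoplasmic CT by 2.76, 0.85, 1.19 and 1.78 cycles. The median of the other named assays under 30 in both samples was 1.33, -0.61, -0.12 and -0.49 over 80, 80, 97 and 98 assays. None of the 80 others was higher than miR-690 in LSK or in promyelocytes, 2.06% were in myelocytes and 1.02% in granulocytes. miR-690 thus gave less signal in whole cell RNA, relative to cytoplasmic RNA, than nearly all other assays, by 1.43, 1.46, 1.31 and 2.26 cycles beyond the median.

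miR-706 showed such a gap in granulocytes, where its whole cell CT exceeded the cytoplasmic one by 2.03 cycles, 2.52 beyond the median, with 1.02% of the other assays higher. In LSK the gap was 1.97 cycles, 0.65 beyond the median, with 11.25% of the others higher and a whole cell CT above 30. In promyelocytes and myelocytes it lay 0.10 and -0.07 cycles from the median. miR-709 lay -0.59 from the median in LSK and 0.49 in granulocytes, and miR-135a* -0.65 in LSK and -0.30 in granulocytes. Counted over the 16 pairs, the whole cell CT was above both fractions in 5, between them in 6 and below both in 5, where miR-709 in granulocytes, equal to its cytoplasmic CT, was counted as between. With each sample centred on its median it was above both in 10, beside 31.8% of the 176 readings of all named assays under 30 in both fractions. The 5 were miR-706 in LSK and granulocytes, miR-690 in LSK and promyelocytes, and miR-709 in LSK. Without centring, 12 of these 176 readings were above both (6.82%), and the 5 pairs are among these 12. By stage this share was 13.3%, 5.41%, 5.41% and 3.51%. Below both were 0 of 45, 34 of 37, 22 of 37 and 48 of 57 named assays in stage order. Between the fractions were 39, 1, 13 and 7 of them. After LSK, most named assays thus lay below both.

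**Figure D3:**
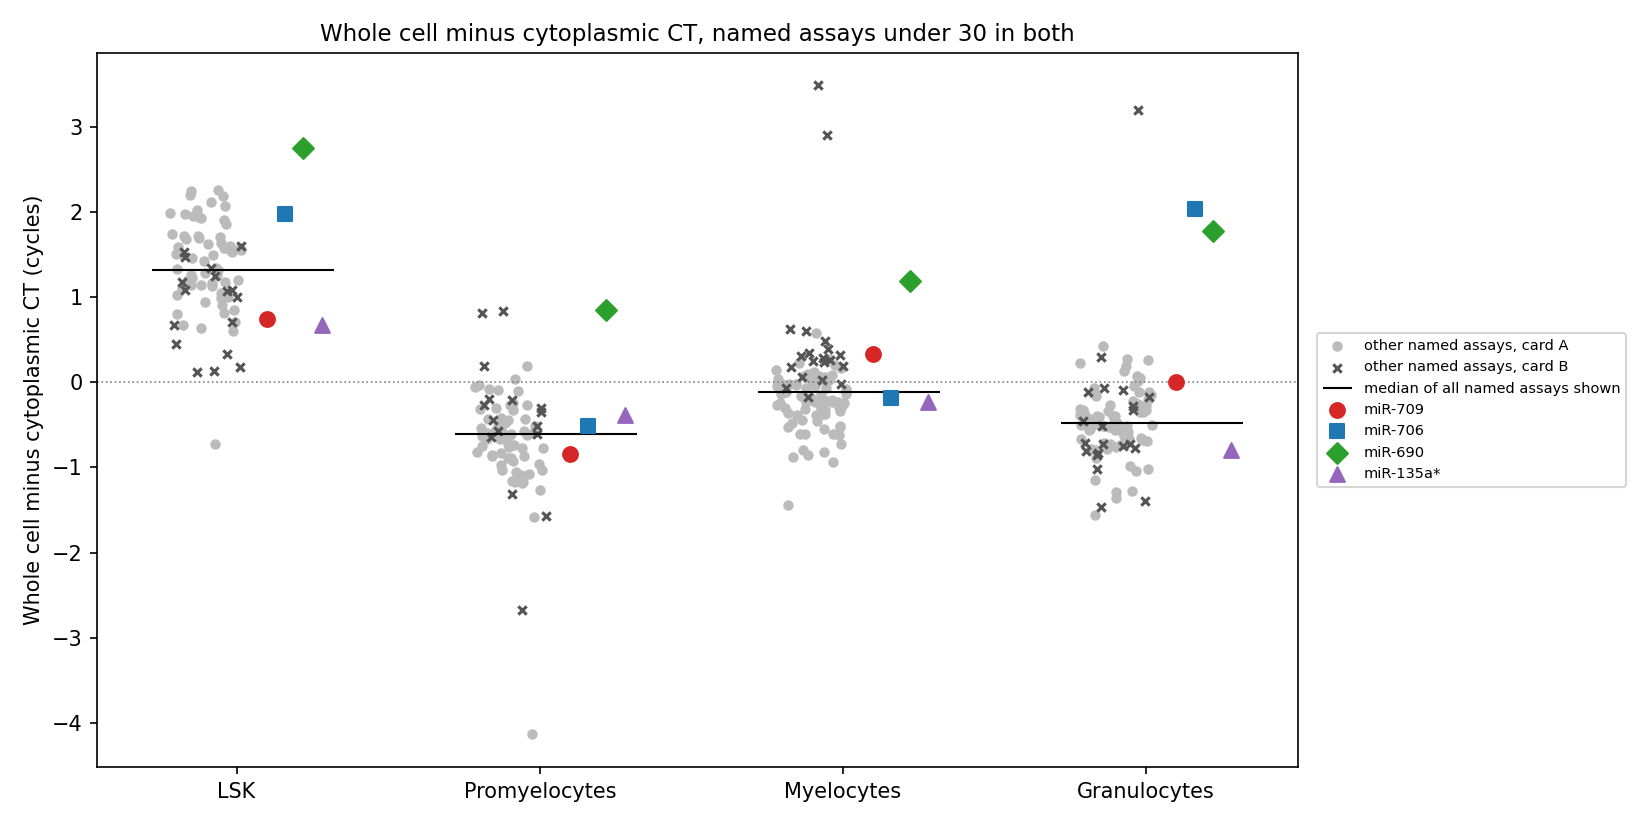
Whole cell minus cytoplasmic CT in cycles for named assays under 30 in both samples, by stage; symbols as in the plot of the fraction difference, with miR-706 in LSK drawn although its whole cell CT was 30.83. miR-690 lies above the black median line in all 4 stages, and miR-706 joins it in granulocytes at 2.03 cycles.

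Across the stages, whole cell miR-709 and miR-135a* had small spans after scaling. After each sample was scaled by the same last 3 assays of card B (their mean CT), the values of miR-709 spanned 0.79 cycles and those of miR-135a* 0.81, the sixth and seventh smallest spans beside 73 named assays under a CT of 30 in all 4 stages, whose median span was 1.88. Without scaling their spans were 1.36 and 1.48, and miR-709 then reached 2-fold in 2 pairs of stages and miR-135a* in 1, against 0 for both after scaling. The span of miR-690 was 1.93 and that of miR-706 was 2.09. Of 24 differences (6 pairs of stages for each miRNA) 7 reached 2-fold, beside 56% of 696 differences over all named assays. miR-706 made 4 of them and miR-690 3. For the pairs of stages in which either did so, the share of all named assays was 51% between LSK and promyelocytes, 66.4% between LSK and myelocytes, 71.8% between LSK and granulocytes, 74% between promyelocytes and granulocytes and 17.5% between myelocytes and granulocytes; for the remaining pair, promyelocytes and myelocytes, it was 54.5%.

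miR-690 was higher in every later stage than in LSK, by 1.73 on the log2 scale in promyelocytes, 1.93 in myelocytes and 1.42 in granulocytes, while the median named assay was higher by 0.43, 1.10 and 1.31. Scaled by the mean CT of named assays instead, the values of miR-690 were 1.39, 1.08 and 0.59, so that granulocytes no longer reached 2-fold. miR-706 was higher than in LSK by 1.98 in promyelocytes, 2.09 in myelocytes and 0.94 in granulocytes (0.10 when scaled by the mean CT of named assays), and its difference from myelocytes to granulocytes was -1.15, where that of the median assay was 0.07. Without scaling it was -0.71, and that from promyelocytes to granulocytes was -0.61 in place of -1.04, so that neither reached 2-fold. The difference from LSK to granulocytes was 1.61 without scaling and then did reach 2-fold. Scaled by the mean of named assays, the difference from LSK to myelocytes was 1.24. The largest step between neighbouring stages was the first one, out of LSK, for both miRNAs. The LSK value of miR-706 rests on a whole cell CT above 30.

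Between promyelocytes and granulocytes the fractions went separate ways for part of the group. On the raw CT scale, with no scaling, the median difference was 1.06 over the 76 named assays under a CT of 30 in all 4 cytoplasmic samples and 0.78 over the 29 under 30 in all 4 nuclear samples, positive values meaning more in granulocytes. For miR-135a* it was 1.27 in nuclear and 0.49 in cytoplasmic RNA. For miR-690 it was -0.79 in nuclear against 1.05 in cytoplasmic RNA, and for miR-706 -1.58 against 1.93. miR-709 gave 0.37 and 1.17. Nuclear miR-690 and miR-706 were thus lower in granulocytes while their cytoplasmic readings were higher. In the step from LSK to promyelocytes the cytoplasmic median was -1.12, with miR-690 at 0.07 and miR-706 at -0.26; in nuclear RNA they were at 1.12 and 1.47, beside a median of 0.26.

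The arms of the miR-135 hairpins took different courses. miR-135a, the strand paired with miR-135a* in the hairpin and also made from a further locus, was undetermined in LSK whole cell RNA (40) and then read at 32.57, 27.69 and 26.62. miR-135b, a relative of miR-135a from another gene, went from 33.96 through 32.28 and 28.69 to 26.67. Over the same samples miR-135a* differed by 1.48 cycles between LSK and granulocytes. Its CT minus that of miR-135a was -4.81 in promyelocytes and 0.24 in granulocytes. These are readings of different assays, so only the gap between stages can be compared.

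In cytoplasmic RNA miR-135a went from 33.28 in LSK to 27.04 in granulocytes and miR-135b from 32.48 through 34.57 and 29.30 to 26.42, against the level values of miR-135a*. In nuclear RNA miR-135a was undetermined in LSK and read at 34.77, 33.08 and 30.06 in the later stages, and miR-135b was undetermined in LSK and promyelocytes and read at 31.69 and 29.69 after them. No nuclear reading of miR-135a was under 30. The nuclear CT of miR-135a was above its cytoplasmic CT by 2.23, 4.66 and 3.02 cycles in the 3 stages after LSK. For miR-135a* the difference taken the other way, cytoplasmic minus nuclear, was -1.24, -1.37 and -0.46 in these stages.

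**Figure D4:**
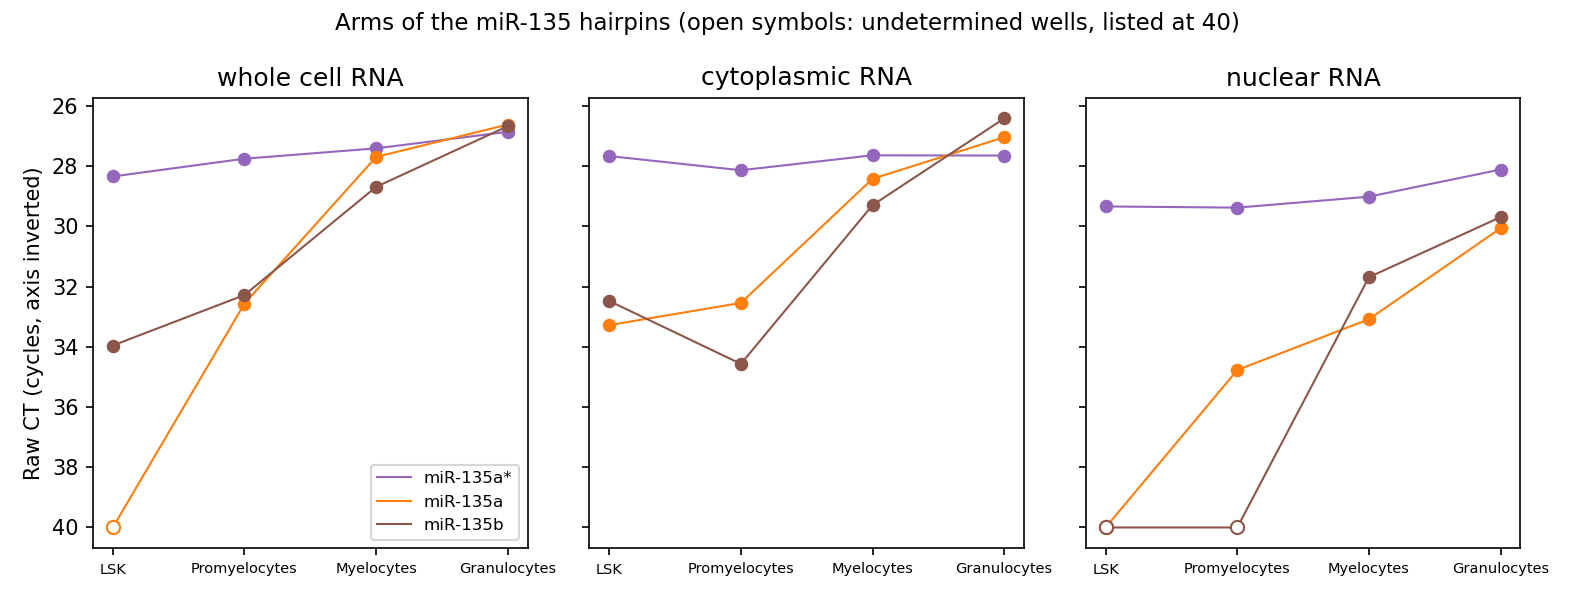
Raw CT (cycles, inverted) of miR-135a*, miR-135a and miR-135b in whole cell, cytoplasmic and nuclear RNA by stage, 1 point per sample; open symbols at 40 are undetermined wells. miR-135a and miR-135b are highest in granulocytes in each panel, with cytoplasmic miR-135b lowest in promyelocytes at 34.57, while miR-135a* differs by 1.48 cycles between LSK and granulocytes in whole cell RNA.

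The miRNAs whose primary transcripts were proposed as binding partners of miR-709 and miR-706 were set beside them between promyelocytes and granulocytes. For miR-709 those taken, likewise a part of the full list, were miR-15a, miR-16, miR-20b and miR-92a. In each of the 3 fractions miR-15a and miR-16 were 2-fold or more higher in granulocytes on the raw CT scale and miR-20b was 2-fold or more lower, beside 60.2% higher and 10.6% lower of the 123 named assays under a CT of 30 in either stage in whole cell RNA, 58.2% and 10.9% of 110 in cytoplasmic RNA, and 58.1% and 11.3% of 62 in nuclear RNA. The nuclear well of miR-15a was undetermined in promyelocytes and read at 31.03 in granulocytes, and nuclear miR-20b was read at 30.80 and 31.93, so neither is among those 62, and miR-92a reached 2-fold in no fraction. Nuclear miR-16 had a CT of 25.80 in promyelocytes and 22.58 in granulocytes, and nuclear miR-709 21.26 and 20.89. The raw difference of nuclear miR-709 was 0.37, beside a median of 1.69 over the 62 named assays under 30 in either of the 2 nuclear samples and of 0.78 over the 29 under 30 in all 4, and that of miR-16 was 3.22. miR-20b and miR-92a, like the partners of miR-706, were proposed with their course in these same samples in view, so their direction is no independent evidence.

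For miR-706 the study names miR-142, miR-192, miR-194 and miR-532, a part of its full list. With both arms of miR-142 and miR-532 taken, those read here were miR-142-3p, miR-142-5p, miR-192, miR-194, miR-532-3p and miR-532-5p. The arms of a hairpin share a primary transcript, and miR-192 and miR-194 can share one too, so the 6 are not independent of each other. All 6 of these were 2-fold or more higher in granulocytes in whole cell and in cytoplasmic RNA, beside the 60.2% and 58.2% given above for assays under 30 in either stage. Cytoplasmic miR-532-3p, at 31.65 and 30.12, was not among the latter. Their median difference was 2.26 in whole cell and 2.73 in cytoplasmic RNA, against 1.48 and 1.31 for the named assays under 30 in either stage. In nuclear RNA 5 were higher and miR-532-3p was undetermined in granulocytes, and miR-142-5p and miR-194 rested on an undetermined promyelocyte well. Of the 6 only miR-142-3p had a nuclear CT under 30 in either stage, so the share of 58.1%, taken over assays that did, is no measure for the other nuclear readings. Nuclear miR-142-3p went from 26.73 to 23.42 while nuclear miR-706 went from 26.62 to 28.20. In the study, a miR-706 inhibitor gave no significant rise of the predicted target miRNAs measured in MEL and MPRO cells. A labelled control inhibitor was seen only in the cytoplasm there.

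The CT profiles most like each of the 4 came mainly from the group itself. Likeness was Pearson's r over the 12 samples, each centred on its median over the 111 named assays detected in all of them. For miR-709 the nearest were miR-706 (0.956), miR-135a* (0.947) and miR-760 (0.935), and for miR-706 they were miR-709, miR-760 (0.956) and miR-690 (0.946). miR-690 was nearest to miR-706, miR-760 (0.908) and miR-709 (0.871), and miR-135a* to miR-709, miR-706 (0.861) and miR-760 (0.856). The samples share the cells of a stage and the fractions that chose the group, and all the assays named here are on card B.

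Once each assay was also centred within each fraction, which removes the average difference between fractions and was added after the values were seen, miR-135a* parted from the other 3. miR-706 and miR-690 were each other's nearest profile at 0.876, and the nearest profile to miR-709 was that of miR-706 at 0.755, followed by miR-690 at 0.689. The r of miR-135a* was 0.119 with miR-709, -0.10 with miR-706 and 0.303 with miR-690, and its nearest profile was miR-188-5p at 0.523.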

How the data were processed

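Cells were fractionated with a commercial kit (PARIS). Per the labels, 100 ng of RNA of each of 12 samples was read with TaqMan rodent microRNA cards A and B on an ABI 7900HT; CT values were called by the authors in SDS and RQ Manager and deposited raw, without normalization, each assay in 1 well and undetermined wells at 40. No column was left out.

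The deposited table numbers its 593 assays. A number was given a name where its 8 fraction CTs uniquely matched a printed entry of the study within 0.0005 cycles. Otherwise a unique match within 0.002 cycles was sought between its whole cell differences and the printed changes. The printed changes were first put on the CT scale by a fitted straight line, as they are not plain CT differences. The log2 differences given here are therefore not on the printed scale. Together these routes named 270 assays (101 on card B), the 4 miRNAs by the first route. Cards were told apart by the decimals of the CT, as no label gives them.

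The nuclear:cytoplasmic ratio is 2 to the cytoplasmic minus nuclear CT, divided by 3 as in the study. Whole cell changes were scaled by the last 3 assays of card B, as their mean CT. Each sample was the only one of its group, so no p-value is given; CT precision is unknown, and readings above 30 are limited by detection. The miRNAs and lists were chosen with earlier results of these data known. Named besides the 4 were the other candidates of the study, the arms and relatives of miR-135a*, proposed partners, markers, assays ranked above a member and the 3 nearest profiles. Alternatives changed the divisor, efficiency, CT limits, reference assays and scaling. The ratio and median steps were tested on simulated data. Sequences and gene names are from RefSeq tables of GRCm38.p6. Computations used Python 3.11.15, numpy 2.4.6, pandas 2.3.3 and matplotlib 3.10.9.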

Additional observations from a re-analysis of the deposited data

Results flagged for a closer look

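The sign of the fraction difference varied between stages for miR-709 and miR-706. From LSK to granulocytes, in stage order, cytoplasmic minus nuclear CT of miR-709 was -0.50, 0.34, -1.52 and -0.45, and that of miR-706 was 0.77, 2.50, -0.18 and -1.01. With 1 sample per stage these differences between stages were not tested.

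Among the unnamed assays, 4 gave a CT under 30 in only 1 of the 12 samples. On card A assay 270 was read at 21.98 in granulocyte nuclear RNA and assay 279 at 15.85 in myelocyte nuclear RNA. On card B assays 408 and 425 were read at 29.85 and 28.56 in promyelocyte cytoplasmic RNA. Each was undetermined in 10 or 11 of the other samples, and none is one of the 4 miRNAs.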

How the results depend on the processing

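No paired analysis was possible because each group of stage and fraction holds 1 sample, so that a fit pairing the fractions within a stage would use the stages as replicates; no sample could be left out. The 15 pairs past the ratio limit became 8 with a nuclear CT under 28, which 9 pairs met. The 13 pairs 4-fold above the stage median became 4 with the median of card B and 7 with that card's median without the 4 miRNAs, the latter added after the values were seen. The 7 whole cell changes of 2-fold became 4 at a 3-fold limit, and the 5 whole cell readings above both fractions became 10 once each sample was centred on its median. Without the divisor the ratio of miR-706 in LSK was 1.71 and that of miR-709 in promyelocytes 1.27, both turning to the nuclear side of 1. Against the card B median miR-135a* turned to -0.15 in LSK and -1.05 in promyelocytes and miR-690 to -0.036 in myelocytes; without the 4 miRNAs in that median miR-135a* in promyelocytes was -0.11. Scaled by the mean CT of named assays, whole cell miR-709 turned to -0.33 from LSK to myelocytes and -0.15 to granulocytes, and miR-135a* to -0.15 and -0.028. From promyelocytes to myelocytes the same scaling turned miR-706 to -0.41, miR-690 to -0.31 and miR-135a* to -0.16, and to granulocytes miR-135a* to -0.036. With no scaling, promyelocytes to granulocytes, miR-709 turned to 0.32 and miR-690 to 0.13. The causes were not tested. Of the other values per miRNA, 57 moved little and 103 moved in size only. The median nuclear CT was near 28 even among the named assays under a CT of 30, so differences of late assays are limited by detection.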
